A study of Mus musculus with 9 samples.

Results

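The cardiac lineage transcription factors examined here were Gata4, Gata6, Nkx2-5, Tbx5, Tbx20, Hand2, Mef2a, Mef2c, Mef2d and Hopx. Their rows were found by symbol, 10 of the 13890 genes in the table of heart RNA counts, and all 10 passed the filter on low counts, as did 13364 genes in all. The 9 libraries came from hearts of male NSG mice, an immunodeficient strain that accepts human cells, 8 weeks old at the start, with tissue taken about 3 weeks after surgery. In sham mice (S, animals 2, 3 and 5) saline was injected into the spleen. As labelled, tumour hosts (T, animals 11, 12 and 15) received HCT116 cells, a human colorectal cancer line that seeds the liver from the spleen. Treated hosts (A + T, animals 20, 21 and 22) received the same cells plus weekly ACVR2B/Fc, a soluble activin receptor fused to an antibody Fc fragment that binds activins, myostatin and related ligands. All 3 groups thus shared the strain, the sex and the splenic surgery, and the tumour was a single cell line in a host without adaptive immunity. None of the 9 libraries is labelled as from sham mice given ACVR2B/Fc.

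In the embryo, GATA zinc finger proteins, the homeodomain protein NKX2-5, T-box proteins, the basic helix-loop-helix protein HAND2 and MADS-box MEF2 proteins bind the enhancers of contractile and conduction genes together, and regulate one another. The adult heart goes on expressing them, and they take part in hypertrophic gene programmes. HOPX is a homeodomain protein that does not itself bind DNA and restrains serum response factor (SRF).

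Some properties of the libraries bear on what follows. Across the genes that the study listed as altered, the T vs. S fold changes computed here followed, almost gene for gene, the column listed for sham mice given ACVR2B/Fc and not the column listed for tumour hosts. Every direction below is therefore that of the libraries labelled T, and what those mice received could not be settled from the counts. The library of animal 22, labelled A + T, stood apart. It held 17508 counts of Scgb1a1, a secretory gene of airway cells, against 1345 in animal 12 and at most 27 in any other library. Its short genes were high and its long genes low against the other A + T libraries. Levels are given as CPM, counts scaled to a common library total with edgeR's TMM factors. The 4 lung and airway markers with counts summed to 1450 CPM in animal 22, 104 in animal 12 and at most 2.74 in any other library. Markers of epicardium and mesothelium also summed highest in animal 22 (176 CPM), with animal 12 next (115 CPM). Library totals ran from 12392222 to 19732471 counts, and ribosomal Rn45s took 4.57 to 19.6% of them. The cardiomyocyte marker list (Myh6, Tnnt2, Actc1, Tnni3, Ryr2, Pln, Myoz2 and Tnnc1) summed to 58500 to 63900 CPM in S, 48300 to 56500 CPM in T, and from 41500 to 58800 CPM for A + T. The groups overlapped on the median log2 CPM of this list. It ran from 12.253 to 12.376 in S, 12.145 to 12.365 in T and 12.084 to 12.5 in A + T.

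All of the members were well expressed. On the authors' length-scaled values (CPM per 1000 bases), the S level was highest for Hopx, at 62.1 ± 0.994 (SD, n = 3), followed by Mef2d (51.8 ± 4.61), Nkx2-5 (48.5 ± 2.13), Gata4 (46.4 ± 1.22) and Mef2a (45.6 ± 1.12). Hand2 (33.3 ± 0.811) and Tbx20 (32.6 ± 1.65) came next, then Gata6 (25.5 ± 2.09), with Tbx5 (15.3 ± 1.10) and Mef2c (14.8 ± 0.511) lowest. Of these neighbours, Mef2d to Mef2a, Hand2 and Tbx20, and Tbx5 and Mef2c had ranges over the S libraries that ran into each other, whereas Hopx lay above Mef2d in every S library and Gata6 below Tbx20. The order rests on the length given to each gene. With the longest matched RefSeq transcript in place of the authors' length, Mef2c came to 34.1 and Mef2d to 23.7, whereas Gata4, Gata6, Nkx2-5 and Tbx5 moved by less than their SD. Tbx20 is longer in RefSeq (9091 against 6934 bases), which brings it down to near Gata6, so their order is not firm.

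**Figure D1:**
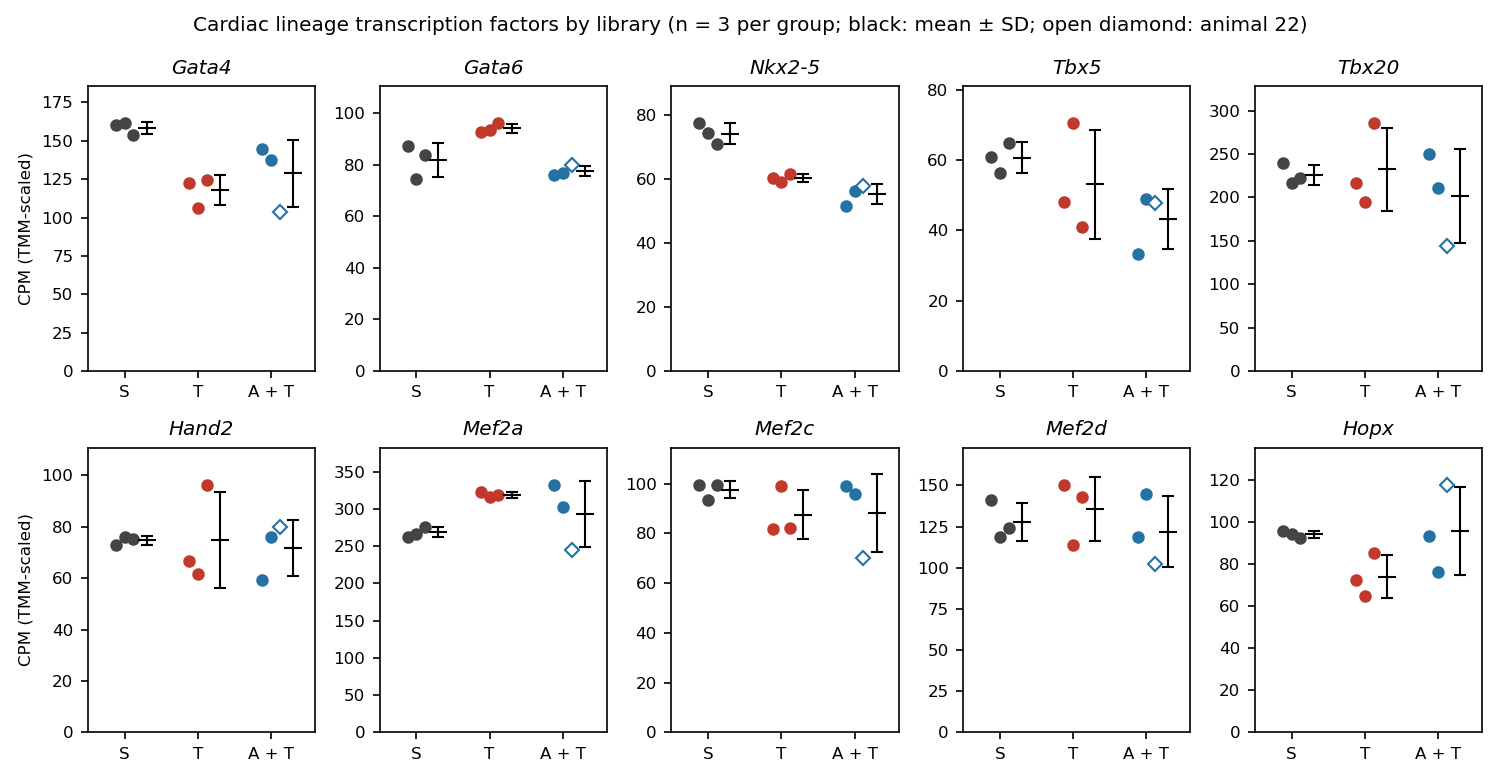
Level of each of the 10 members in each library, in TMM-scaled CPM, with n = 3 animals per group. Points are animals, black bars the mean ± SD, and the open diamond is animal 22. The S libraries lie close together for most members, Nkx2-5 is lower in every T and A + T library than in any S library, and animal 22 is the lowest of all 9 libraries for Gata4, Tbx20, Mef2a, Mef2c and Mef2d.

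By the labels, T vs. S asks how the hearts of tumour hosts differ from those of sham mice. In this comparison 2 of the 10 members fell and none rose at an adjusted P under 0.05. These were Gata4 (-25.7%) and Nkx2-5 (-18.8%). Over all genes tested, 21.2% were called in this comparison, 11% lower and 10.3% higher, so the share of members called was close to the background. At an unadjusted P under 0.05, 5 members passed, beside 35.4% of all genes. The median log2 fold change of the members was -0.08, beside -0.004 for all genes tested. The libraries of T and S did not overlap for 5 members (Gata4, Gata6, Nkx2-5, Mef2a and Hopx), beside 42.6% of all genes. Each group holds 3 animals, so an exact permutation test of a single value cannot go below P = 0.1. In bulk tissue, fewer cells of a type and less RNA per cell cannot be told apart.

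Nkx2-5, the homeodomain factor that marks the cardiac lineage and is needed for heart looping and the conduction system, lies on the minus strand of chromosome 17 (26838664 to 26845009, GRCm38). Its level was 77.5, 74.3 and 71.0 CPM in S, 60.3, 59.0 and 61.6 CPM in T, and 51.7, 56.3 and 57.8 CPM in A + T. Every T and A + T library lay below every S library, and every A + T library lay below every T library. The T vs. S log2 fold change was -0.30 (SE 0.07, 95% interval -0.46 to -0.14, adjusted P = 0.0149), and the call held in 8 of 9 fits that left out 1 animal, being lost without animal 2 of S (adjusted P = 0.0669). Nkx2-5 also fell by 25.6% in A + T vs. S (log2 fold change -0.43, SE 0.07, adjusted P = 0.00885), a call kept in 9 of 9 such fits. A + T vs. T did not pass the test (-8.33%, log2 interval -0.29 to 0.04, adjusted P = 0.336). The spread of Nkx2-5 within groups was small, with an SD of 0.06 on the log2 scale, beside a median of 0.17 for all genes tested.

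Because Nkx2-5 was the member that fell in both comparisons with S, its promoter window is shown, from RefSeq on GRCm38.p6 (chr17:26841516-26841815, minus strand, 250 bases before to 50 after the start site). Windows of this length were at hand for 7 of the 10 members (10 windows in all) and not for Gata4, Gata6 and Tbx5. Both strands were searched for GATA sites (AGATAA and TGATAA, each also with a final G), NKX2-5 sites (TNAAGTG), T-box sites (AGGTGT), HAND E-boxes (CATCTG), MEF2 boxes and CArG boxes, the last being the site of SRF. The RefSeq start of this window lies inside the gene span given above. None of these motifs occurs in the Nkx2-5 window, which is therefore all in lower case.
Nkx2-5: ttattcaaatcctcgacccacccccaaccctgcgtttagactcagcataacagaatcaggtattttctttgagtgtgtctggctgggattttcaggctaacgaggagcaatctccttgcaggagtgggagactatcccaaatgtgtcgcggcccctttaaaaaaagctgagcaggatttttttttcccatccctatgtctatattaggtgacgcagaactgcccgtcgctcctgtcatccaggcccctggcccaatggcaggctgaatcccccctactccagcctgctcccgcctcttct

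Gata4, the zinc finger factor that regulates contractile genes and the hypertrophic response, lies on the minus strand of chromosome 14 (63198922 to 63271692, GRCm38). Its level was 160.0, 161.5 and 153.9 CPM in S, 122.2, 106.5 and 124.4 CPM in T, and 144.7, 137.7 and 103.8 CPM in A + T. The S libraries were the 3 highest of the 9. The A + T libraries of animals 20 and 21 lay between S and T, and that of animal 22 lay below all others. The T vs. S log2 fold change was -0.43 (SE 0.12, 95% interval -0.69 to -0.17, adjusted P = 0.0281). The call held in 4 of 9 fits that left out 1 animal, and was lost without any one S animal or without animal 11 or 12 of T (adjusted P at most 0.0895). Gata4 did not pass the test in A + T vs. S (-18.8%, log2 interval -0.56 to -0.04, adjusted P = 0.141), nor did it in A + T vs. T (9.38%, -0.14 to 0.39, adjusted P = 0.566). Without animal 22, the A + T vs. S log2 fold change of Gata4 was -0.16.

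Gata6 is the closest relative of Gata4 among the members and partly redundant with it. Its level was 87.5, 74.4 and 83.8 CPM in S, 92.8, 93.4 and 96.2 CPM in T, and 76.0, 76.9 and 79.8 CPM in A + T. All T libraries lay above all others, and A + T lay within the range of S. T vs. S missed the threshold (15%, log2 interval 0.03 to 0.37, adjusted P = 0.0885), as did A + T vs. T (-17.6%, -0.45 to -0.11, adjusted P = 0.0608). For A + T vs. T the adjusted P was 0.0208 with DESeq2.

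The ratio of Gata4 to Gata6 counts within a library does not depend on the scaling between libraries. It was chosen for display after the values had been seen. The ratio was 1.83, 2.17 and 1.84 for the S libraries and 1.32, 1.14 and 1.29 for those of T. In A + T it was 1.90, 1.79 and, for animal 22, 1.3. The S and T libraries did not overlap, and the log2 ratio averaged 0.96 ± 0.14 for S against 0.32 ± 0.11 for T, with 0.72 ± 0.30 for A + T (SD, n = 3). T vs. S reached the smallest value that the exact permutation test allows (two-sided P = 0.1), while A + T overlapped both T (P = 0.2) and S (P = 0.4), with animal 22 inside the T range.

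**Figure D2:**
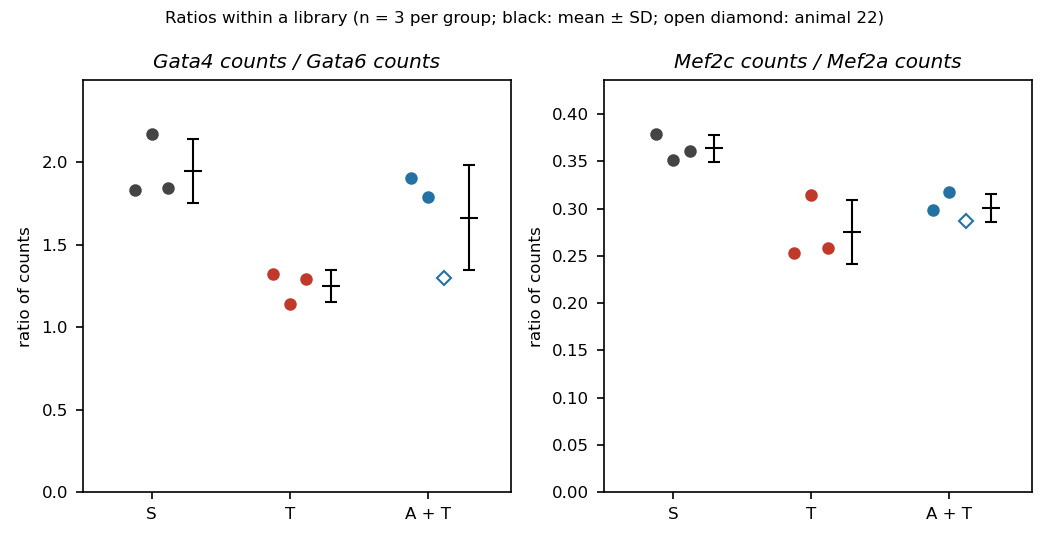
Ratio of Gata4 to Gata6 counts and of Mef2c to Mef2a counts within each library (n = 3 animals per group). Points are animals, black bars the mean ± SD and the open diamond animal 22. Both ratios are lower in every T library than in any S library, and for the first ratio the A + T library of animal 20 lies in the S range and that of animal 22 in the T range, whereas for the second every A + T library lies below S.

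The MEF2 proteins, MADS-box factors held in check by class II histone deacetylases and released by calcium signals, did not share a pattern, and none of their differences passed the test. Mef2a, the most counted member, had 262.8, 266.5 and 275.7 CPM in S, 323.1, 315.3 and 318.0 CPM in T, and 332.4, 302.3 and 245.3 CPM in A + T. Every T library lay above every S library, and A + T spanned both, with animal 22 lowest. T vs. S missed the threshold in the fit of all libraries (18.8%, log2 interval 0.02 to 0.48, adjusted P = 0.115). Of 9 fits that left out 1 animal, only 1 passed, that without animal 22 of A + T (adjusted P = 0.0155). Without animal 2 of S the adjusted P was 0.231. The spread in these fits is estimated over all groups together.

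Mef2c, the member of the family that the early heart tube depends on, had 99.6, 93.6 and 99.5 CPM in S, 81.7, 98.9 and 82.1 CPM in T, and 99.1, 95.8 and 70.3 CPM in A + T. The groups overlapped, and no comparison passed the test (T vs. S -10.2%, log2 interval -0.44 to 0.13, adjusted P = 0.422). Mef2d, which takes part in stress-dependent remodelling, had 119.0 to 140.9 CPM over the S libraries, 113.7 to 150.5 CPM over those of T and 102.2 to 144.7 CPM over those of A + T, again with overlap in every comparison (T vs. S 5.90%, log2 interval -0.23 to 0.39). Within a library, Mef2c counts were 0.351 to 0.379 of Mef2a counts for S, 0.253 to 0.314 for T and 0.287 to 0.317 for A + T. This ratio was also chosen after its values had been seen. It was lower in every T and A + T library than in any S library, with the smallest P the exact permutation test allows (0.1) in both comparisons. The ratios of Tbx5 to Tbx20 and of Mef2d to Mef2a were also computed, and overlapped in every comparison. Their T vs. S permutation P was 0.7 and 0.5. How often ratios of other gene pairs separate the groups was not computed. Mef2c and Mef2a differ little in length on the authors' models (6605 and 5879 bases), but their longest matched RefSeq transcripts differ more (2862 and 5538 bases).

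The promoter window of Mef2a (chr7:67372809-67373108, minus strand, RefSeq, GRCm38.p6) is shown because it was the only one of the members' 10 windows with a MEF2 box. The box is in capitals and runs from -2 to 8 around the start site. A MEF2 box occurs in 3.19% of all 32851 promoter windows. The match is a run of letters and not a measured site.
Mef2a: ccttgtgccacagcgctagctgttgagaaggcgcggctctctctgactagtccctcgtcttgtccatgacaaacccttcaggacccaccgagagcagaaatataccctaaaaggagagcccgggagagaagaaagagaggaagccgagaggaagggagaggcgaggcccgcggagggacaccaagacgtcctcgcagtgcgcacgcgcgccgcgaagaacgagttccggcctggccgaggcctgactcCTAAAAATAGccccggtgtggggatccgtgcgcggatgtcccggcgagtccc

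Hopx had 95.7, 94.4 and 92.7 CPM in S, 72.6, 64.9 and 85.3 CPM in T, and 93.7, 76.5 and 118.0 CPM in A + T. All T libraries lay below all S libraries, while A + T ran from within the T range to the highest library of all, animal 22. T vs. S did not pass the test (-21.4%, log2 interval -0.67 to -0.02, adjusted P = 0.118). Of 9 fits that left out 1 animal, only 1 passed, that without animal 22 (adjusted P = 0.0362). Without animal 12 of T the adjusted P was 0.299 and the log2 fold change -0.26. A + T vs. T did not pass either (29.6%, log2 interval 0.05 to 0.70, adjusted P = 0.165), and its log2 fold change went from 0.37 to 0.20 without animal 22. The window at the first Hopx start (chr5:77115074-77115373, minus strand, RefSeq, GRCm38.p6) holds a CArG box from -83 to -74, in capitals, the class of site that SRF, the partner HOPX restrains, is known to bind. A CArG box occurs in 1.63% of all windows, and in 1 of the members' 10. The window at start 2 of Hopx, not shown, holds an NKX2-5 site from 35 to 41. It is the 1 window of the members' 10 with such a site, beside 11.5% of all windows. These matches are runs of letters and not measured sites.
Hopx start 1: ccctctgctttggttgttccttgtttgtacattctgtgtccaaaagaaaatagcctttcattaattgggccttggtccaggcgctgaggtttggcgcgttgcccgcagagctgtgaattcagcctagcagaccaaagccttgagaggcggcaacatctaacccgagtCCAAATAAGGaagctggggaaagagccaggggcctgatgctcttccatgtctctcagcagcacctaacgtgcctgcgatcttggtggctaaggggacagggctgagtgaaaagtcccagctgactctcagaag

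Tbx5, a T-box factor of the atria, the left ventricle and the conduction system, had 60.9, 56.2 and 65.0 CPM in S, 48.0, 70.6 and 40.9 CPM in T, and 33.4, 48.8 and 47.7 CPM in A + T. T spanned the range of S, and every A + T library lay below every S library. Tbx5 had the largest log2 fold change of the members in A + T vs. S (-0.49, SE 0.19, -28.7%) and still did not pass the test (adjusted P = 0.143). Its spread within groups was wide (SD 0.30 on the log2 scale).

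The level of Tbx5 went with that of atrial genes from library to library. Myl7, the atrial myosin light chain, had 308, 310 and 354 CPM in S, 106, 410 and 23.2 CPM in T, and 43.3, 225 and 242 CPM in A + T. The summed level of the 8 atrial markers (Myl7, Myl4, Sln, Nppa, Bmp10, Stard10, Fgf12 and Dkk3) ran from 3250 to 3310 CPM for S, from 903 to 4900 for T and from 840 to 2240 for A + T, with no marker at 0 in any library. Animal 12 had the highest Tbx5 and the highest atrial median, and animals 15 and 20 the lowest of both. Of the 8 markers only Bmp10 was called, in T vs. S. With the median atrial marker level as a covariate, an alternative added after the values had been seen, the A + T vs. S log2 fold change of Tbx5 was -0.19 and that of T vs. S was 0.03. Under that covariate Gata4 passed in A + T vs. S (adjusted P = 0.0358) and Nkx2-5 kept its T vs. S value (log2 fold change -0.29). Every A + T library had a lower atrial median than any S library, so in A + T vs. S the covariate and the group cannot be told apart. The part of atrial tissue in the Tbx5 values was not tested.

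**Figure D3:**
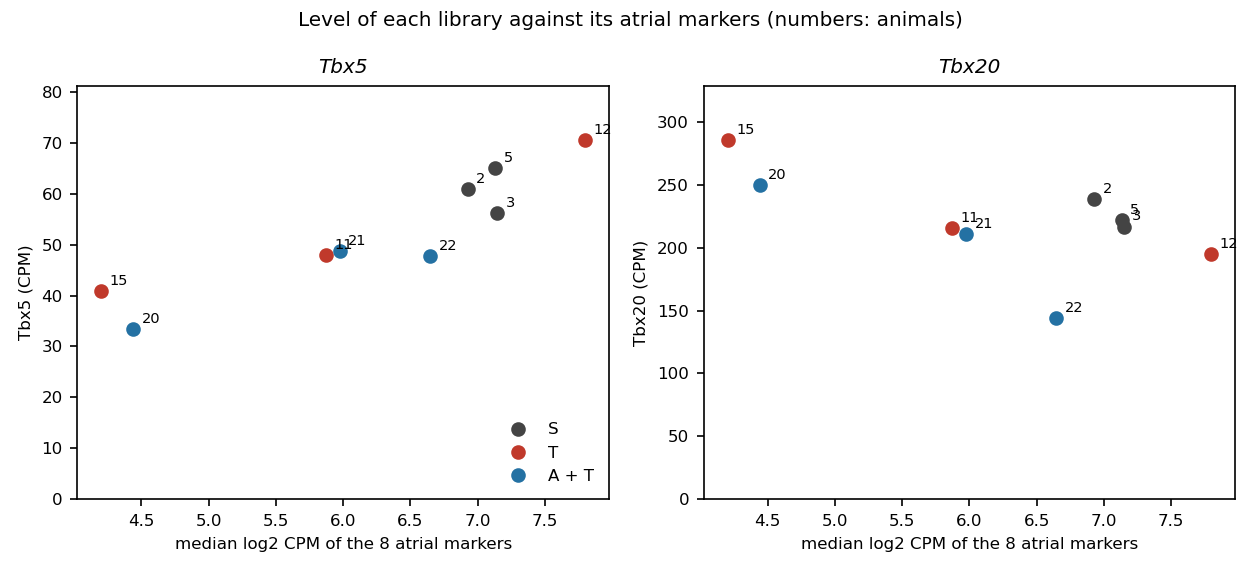
Level of Tbx5 (left) and Tbx20 (right) in each library, in CPM, against the median log2 CPM of the 8 atrial markers. Points are animals, numbered, and coloured by group. Tbx5 is highest in animal 12 and lowest in animals 15 and 20, at the ends of the atrial axis, and Tbx20 is highest in animal 15.

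Tbx20, a T-box factor that represses other lineages in the working myocardium, had 239.2, 216.9 and 222.5 CPM in S, 216.5, 194.5 and 285.6 CPM in T, and 250.3, 210.8 and 143.8 CPM in A + T. T and A + T each spanned values above and below S, and no comparison passed the test (T vs. S 2.57%, log2 interval -0.38 to 0.46). The levels of Tbx20 in animals 15 and 22 lay at the 2 ends of all libraries. Hand2, a helix-loop-helix factor of the right ventricle and of cardiac fibroblasts, had 72.7 to 76.1 CPM over the S libraries, 61.8 to 96.4 CPM over those of T and 59.3 to 80.0 CPM over those of A + T. Its T libraries lay on both sides of S, and the T vs. S interval ran from -21.9% to 27.9%.

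The Hand2 window (chr8:57320733-57321032, plus strand, RefSeq, GRCm38.p6) is shown for comparison, because it was the only one of the members' 10 windows with GATA sites, which occur in 29.8% of all windows. The capitals mark a HAND E-box (-246 to -241) and 2 GATA sites, at -215 to -210 and, on the other strand, at -172 to -167. E-boxes of this form occur in 17.2% of all windows, NKX2-5 sites in 11.5% and T-box sites in 13.7%, beside 2, 1 and 1 of the members' 10 windows.
Hand2: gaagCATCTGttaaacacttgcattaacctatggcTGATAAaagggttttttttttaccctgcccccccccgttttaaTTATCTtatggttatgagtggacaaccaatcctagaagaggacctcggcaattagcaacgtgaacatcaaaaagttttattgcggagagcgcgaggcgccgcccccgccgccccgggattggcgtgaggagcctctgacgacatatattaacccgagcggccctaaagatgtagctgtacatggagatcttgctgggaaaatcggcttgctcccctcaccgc

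By the labels, A + T vs. T asks what ACVR2B/Fc did in tumour hosts, though what the T mice received was not settled. Here 0 of the 10 members passed edgeR's quasi-likelihood test at an adjusted P under 0.05. Of all genes tested, 5.88% passed (2.79% lower and 3.09% higher). At an unadjusted P under 0.05, 2 members passed (Gata6 and Hopx), beside 22.4% of all genes. DESeq2 called 1 member, Gata6, and the likelihood ratio test and limma-voom called 0. The libraries of A + T and T did not overlap for 2 members, Gata6 and Nkx2-5, beside 25.4% of all genes.

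Treated hosts were also set against sham mice. In A + T vs. S, 1 member was called, Nkx2-5, lower, beside 8.31% of all genes tested, 3.64% lower and 4.67% higher. At an unadjusted P under 0.05, 3 members passed (Gata4, Nkx2-5 and Tbx5), beside 26.1% of all genes. The groups did not overlap for 3 members (Nkx2-5, Gata4 and Tbx5), beside 32.4% of all genes. The median log2 fold change of the members was -0.11, beside 0.003 for all genes. For A + T vs. T these medians were -0.12 and 0.01. The comparisons share libraries (T in the first 2, S and A + T in the others), so they are not independent of each other. Set side by side, with T vs. S first and A + T vs. T after it, the log2 fold changes of the members whose T and S libraries did not overlap were -0.43 and 0.13 for Gata4, 0.20 and -0.28 for Gata6, -0.30 and -0.13 for Nkx2-5, 0.25 and -0.12 for Mef2a, and -0.35 and 0.37 for Hopx. Those of the other members were -0.19 and -0.30 for Tbx5, 0.04 and -0.20 for Tbx20, -0.001 and -0.06 for Hand2, -0.155 and 0.01 for Mef2c, and 0.08 and -0.15 for Mef2d. The first set was picked because its T values lay apart from S, and A + T vs. T uses the same T values. That choice by itself favours opposite signs, so they cannot be read as an effect of treatment. With a limit of 1.5-fold on top of an unadjusted P under 0.05, 0 members were counted in any comparison by edgeR's test, beside 14.2%, 8.11% and 8.91% of all genes. The largest change of a member, that of Tbx5 in A + T vs. S, stayed under this limit.

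**Figure D4:**
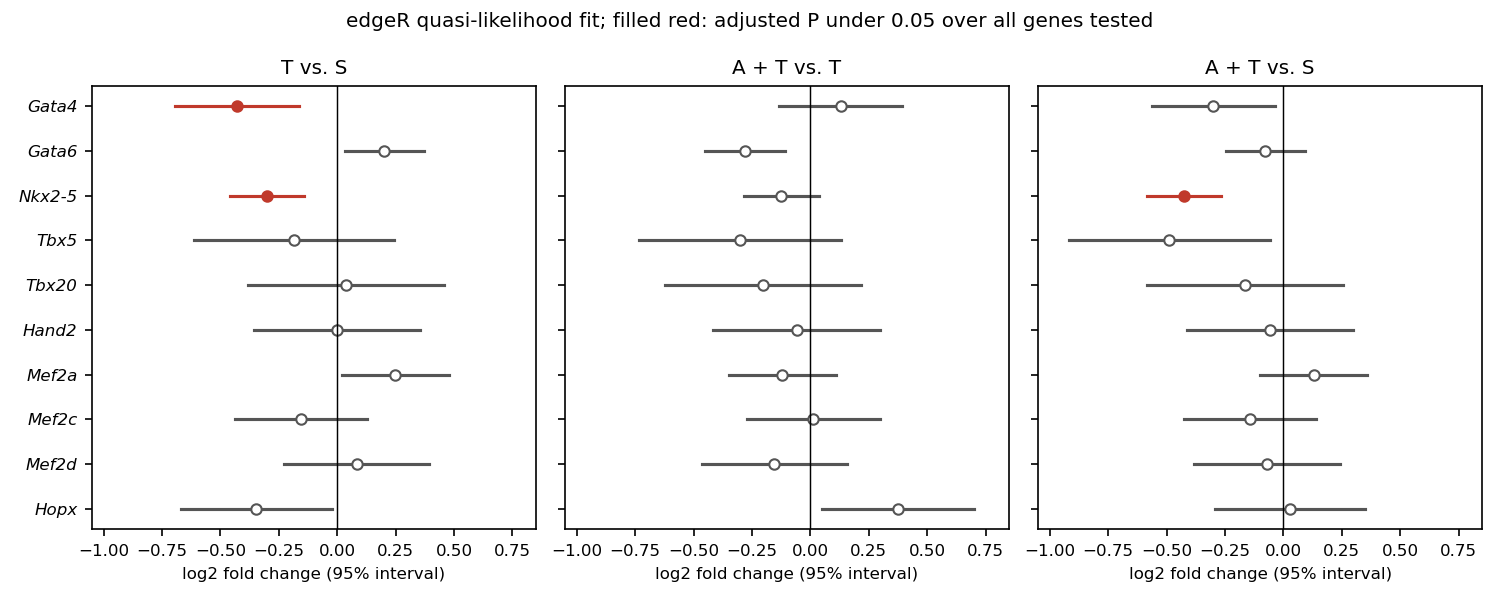
Log2 fold change of each member (points) with its 95% interval (lines) in the 3 comparisons, 1 per panel, from edgeR's quasi-likelihood fit of all 9 libraries. Filled red points have an adjusted P under 0.05 over all 13364 genes tested: Gata4 and Nkx2-5 in the first panel, no member in the second and Nkx2-5 in the third.

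Animal 22 lay at an end of all 9 libraries for 6 members. It was the lowest of the 9 libraries for Gata4, Tbx20, Mef2a, Mef2c and Mef2d and the highest for Hopx. Against the mean of animals 20 and 21 on the log2 scale, it differed by -0.68 for Tbx20, -0.47 for Mef2c, -0.44 for Gata4, -0.37 for Mef2a and -0.36 for Mef2d, and by 0.48 for Hopx. The median difference of all genes tested went with their length in this library, and was 0.24 for genes of up to 1000 bases and -0.21 for genes over 6000 bases. On the authors' models Tbx20 has 6934 bases and Hopx 1519, in length classes with medians of -0.21 and 0.13. Tbx20 thus lay under its class median and Hopx above its own, while Nkx2-5 (1533 bases) differed by 0.099. Gata4 (3414) and Mef2d (2474) are of middle length, where the median of all genes was -0.03 and 0.03. After a correction of each library for its length trend, also added after the values had been seen, 4 members passed in T vs. S (Gata4, Nkx2-5, Gata6 and Mef2a) and 1 in A + T vs. T (Gata6, adjusted P = 0.0417). The parts of RNA quality and of airway tissue in these values were not tested.

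**Figure D5:**
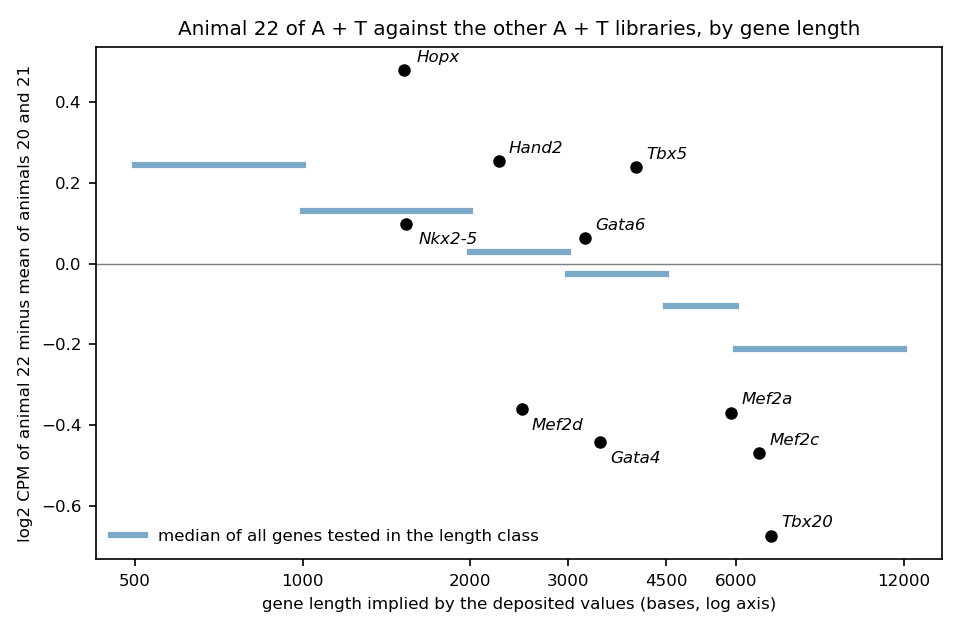
Difference in log2 CPM between animal 22 and the mean of animals 20 and 21, all labelled A + T, against gene length in bases on a log axis. Black points are the 10 members and blue lines the median of all genes tested in each length class, which runs from 0.24 for the shortest class to -0.21 for the longest, drawn to the ends of the axis. Tbx20, Mef2c and Mef2a lie at the long end and low, and Hopx at the short end and high. Gata4, Mef2d, Tbx20, Mef2c and Mef2a all lie under the line of their length class, and Hopx above its own. Nkx2-5, close to Hopx in length, lies near the line.

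Among 35 other cardiac transcription factors, 32 were in the table (Hand1, Isl1 and Mef2b were not) and all 32 were tested. In T vs. S 3 rose and 6 fell, where 10.3% of all genes tested were called higher and 11% lower. The rises were Ppargc1a, the coactivator of mitochondrial genes (73.4%), Tead3, a TEAD factor of the Hippo pathway (47.0%), and Irx3, an Iroquois factor of the conduction system (38.2%). The largest falls were those of Heyl, a Notch target of vessel walls, Tcf21, a factor of fibroblasts, and Mkl1, a coactivator of SRF, with changes of -66.8%, -59.6% and -46.7%. Tcf21 rose in A + T vs. T (92.9%) and Ppargc1a fell by 49.1%, the only calls of the list there, beside 5.88% of all genes. Against S, 1 rose in A + T (Irx3, 24.4%) and 4 fell, beside 8.31% of all genes called, the largest being Heyl, Myocd, the heart and smooth muscle partner of SRF, and Irx4, a ventricular Iroquois factor, with changes of -52.0%, -38.8% and -31.0%. Srf itself fell in T vs. S (-19.2%, adjusted P = 0.0361) and in A + T vs. S (-29.5%, adjusted P = 0.0113), and its mean was 182 ± 6.62 CPM for S, 147 ± 17.6 for T and 128 ± 4.81 for A + T. Gata5, the third cardiac GATA gene, was low (1.11 ± 0.304 CPM in S). With 1 animal left out, the T vs. S falls of this list ranged from 3 (without animal 2 or 3) to 7 (without animal 22). The T vs. S calls of Irx3, Tead3, Heyl, Tcf21 and Mkl1 and the A + T vs. S call of Heyl held in 9 of 9 such fits. Tcf21 in A + T vs. T held in 8, lost without animal 11. Srf held in 8 for A + T vs. S, lost without animal 2, and in 4 for T vs. S, lost without animals 2, 3, 5, 11 or 12. Ppargc1a held in 4 for T vs. S, lost without animals 2, 3, 5, 11 or 15, and in 2 for A + T vs. T, those without animal 12 or 22. For A + T vs. S, Irx4 held in 6 (lost without animals 2, 3 or 22), Myocd in 4 (lost without animals 2, 3, 5, 11 or 21) and Irx3 in 2, those without animal 12 or 15.

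Among 30 cofactors and regulators of the members, 2 rose and 5 fell in T vs. S, beside the 21.2% of all genes called, so the share called was near the background. Ankrd1, a stress-responsive ankyrin repeat protein, rose (109%), and so did Trim63, a muscle ubiquitin ligase (67.3%). The largest falls were those of Mapk7 and Mapk14, kinases that phosphorylate MEF2 proteins, and Zfpm1, a zinc finger partner of GATA proteins, with changes of -41.3%, -19.0% and -29.6%. Ankrd1 was the one call of the 30 in A + T vs. T, where it fell by 38.6% and 5.88% of all genes were called. Against S, Trim63 rose in A + T (30.8%), while Zfpm1 (-38.7%) and Smarcd3 (-23.0%), a chromatin remodelling subunit that binds cardiac factors, fell, beside 8.31% of all genes called. Zfpm2, the GATA4 partner also called FOG2, did not pass in T vs. S (-5.18%, adjusted P = 0.796), nor did the class II deacetylases Hdac5 (10.2%, adjusted P = 0.215) and Hdac9 (-20.1%, adjusted P = 0.0864). With 1 animal left out, the T vs. S falls of this list were 2 without animal 5 or 12, 3 without animal 2, 3, 11 or 15, and up to 6 without animal 22. The T vs. S calls of Ankrd1, Trim63, Mapk7 and Zfpm1 and the A + T vs. S call of Zfpm1 held in 9 of 9 such fits. Mapk14 held in 7 for T vs. S, lost without animal 5 or 12. Ankrd1 held in 7 for A + T vs. T, lost without animal 11 or 12. For A + T vs. S, Trim63 and Smarcd3 each held in 4, the first lost without animals 2, 3, 11, 20 or 21 and the second without animals 2, 3, 5, 20 or 21.

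Of 40 cardiac genes listed as targets of the members, 11 rose and 4 fell in T vs. S. Of all genes, 10.3% were called higher there and 11% lower. Whether the members regulate these genes in these hearts was not measured. Of the same list, 0 rose and 8 fell in A + T vs. T, beside 5.88% of all genes called, while 1 rose and 2 fell when A + T was set against S, beside 8.31%. The largest rises in T vs. S were Myh7, the slow myosin heavy chain (8.91-fold), Cdkn1a, a cell cycle inhibitor (2.24-fold), and Klf15, a Kruppel-like factor that restrains hypertrophy (2.03-fold). The largest falls in A + T vs. T, which uses the same T libraries, were those of Myh7, Cdkn1a and Klf15 (log2 fold changes -2.33, -1.03 and -0.76). The largest falls in T vs. S were Bmp10, an atrial growth factor, Actc1, cardiac actin, and Myl1, a myosin light chain, with changes of -98.5%, -46.3% and -33.3%. Myh7 rose in A + T vs. S (77.2%), and Kcne1, a potassium channel subunit (-47.2%), and Nppb, the B-type natriuretic peptide (-45.2%), fell. The median log2 fold change of the list was 0.06 in T vs. S and -0.21 in A + T vs. T. With 1 animal left out, the T vs. S rises went down to 7 (without animal 3 or 11) and the falls to 2 (without animal 3, 11 or 15), with up to 6 falls without animal 12 or 22. The A + T vs. T falls went down to 5 without animal 3 or 20 and to 3 without animal 11. Myh7 held in 9 of 9 such fits in each comparison, Cdkn1a in 9 for T vs. S as well as in 9 for A + T vs. T, and Klf15 and Actc1 in 9 for T vs. S. Klf15 held in 2 for A + T vs. T, those without animal 15 or 22. For T vs. S, Bmp10 held in 7 (lost without animal 11 or 12) and Myl1 in 5 (lost without animals 2, 3, 11 or 15). For A + T vs. S, Nppb held in 5 (lost without animals 2, 3, 20 or 22) and Kcne1 in 3, those without animal 12, 15 or 22.

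Markers of other cell types moved with the same groups. The 7 fibroblast markers all fell in T vs. S (Pdgfra, Col1a1, Col1a2, Dcn, Lum, Tcf21 and Dpt), with a summed level of 1450 to 1660 CPM for S, 859 to 978 for T and 1100 to 1610 for A + T, and 5 of the 7 rose in A + T vs. T. Of 7 endothelial markers 5 fell in T vs. S, with sums of 849 to 1010 CPM for S, 501 to 621 for T and 625 to 793 for A + T. Of 8 smooth muscle and pericyte markers 5 fell in T vs. S, with sums of 791 to 926, 566 to 728 and 543 to 811 CPM in the same order of groups. All 7 macrophage markers rose in A + T vs. S, with sums of 161 to 177, 177 to 203 and 249 to 324 CPM, in the order S, T, A + T. No marker of these lists was at 0 in any library. Of the 8 cardiomyocyte markers 2 rose (Tnnt2 and Pln) and 1 fell (Actc1) in T vs. S. Hand2, which cardiac fibroblasts also express, had means of 74.7 CPM for S and 74.9 CPM for T. Its T libraries were 66.6, 61.8 and 96.4 CPM. The T vs. S log2 fold change was -0.21 without animal 15, the highest, and did not pass (adjusted P = 0.267). Without animal 12, the lowest, it was 0.12. The part of these cell types in the falls of Gata4 and Nkx2-5 was not tested.

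The genes whose log2 level over the 9 libraries was most like that of the called members are given as a description, since the libraries share groups and depth. For Gata4 they were Larp4b (Pearson r = 0.985), Fsd2 (0.984) and Anapc1 (0.979), and 227 genes had an r over 0.9. For Nkx2-5 they were Mall (0.984), Dyrk2 (0.978) and Palm (0.971), and 59 genes had an r over 0.9. No other member was among these 3 for either gene.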

How the data were processed

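Heart RNA of 9 mice, 3 per group as the labels give them, was analysed. The authors kept RNA with an integrity number from 7 upwards, sequenced 75-base paired ends, aligned them to mm10 with STAR and counted unique, strand-matched reads on RefSeq genes with featureCounts. They deposited raw counts per gene and log2 values. The deposited log2 values differed from log2 CPM by a constant per gene (median SD 0.00239), from which each gene's length was taken. Animals are separate by their numbers in the labels.

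A gene was dropped where over 4 libraries had a CPM below 0.5. The quasi-likelihood test of edgeR 4.0.16, run in R 4.3.3 on the deposited counts, took all 9 libraries in 1 fit, with TMM scaling and Benjamini-Hochberg adjustment over 13364 genes. CPM are TMM-scaled. Alternatives used DESeq2 1.42.0, limma 3.58.1 and other scalings, filters and thresholds, and fits without each single animal. The scripts were tested on simulated data. Depth was 12392222 counts or more per library, and libraries of a group differed by more than sampling noise (chi-square per gene at least 7.63). All members were named, and from each other list the 3 largest called rises and falls per comparison plus Gata5, Hand1, Zfpm2, Hdac5, Hdac9, Srf and Myocd. Members and lists were chosen with earlier results of these data known. Coordinates are GENCODE M21 on GRCm38, and promoters RefSeq on GRCm38.p6. Figures were drawn with matplotlib 3.10.9.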

Additional observations from a re-analysis of the deposited data

How the results depend on the processing

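No paired analysis was possible because the labels number the animals without a number shared between groups. The count of members called in T vs. S (2) became 0 with library totals only, 4 with only the 2 groups compared in the fit, 4 with the length trend removed and 0 at the study's thresholds, and ran from 0 (without animal 2 of S) to 4 (without animal 22 of A + T) when 1 animal was left out. In A + T vs. T the count (0) was 1 with DESeq2, with the length trend removed and at an adjusted P under 0.1, and 0 to 0 with 1 animal left out. In A + T vs. S the count (1) was 0 with library totals only and at the study's thresholds, 2 with the atrial covariate, and 1 to 1 with 1 animal left out. The length trend and the atrial covariate were chosen after seeing the data. The cause of these differences was not tested. At the study's thresholds the fold limit itself removes the calls.

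Of the members' log2 fold changes, direction and side of the threshold were kept in 189 of 220 refits for T vs. S, 211 of 220 for A + T vs. T and 210 of 220 for A + T vs. S. The sign changes were these, and their cause was not tested. In T vs. S, the atrial covariate gave 0.025 for Tbx5, -0.2 for Tbx20 and -0.015 for Mef2d, and library totals gave -0.018 for Tbx20. Hand2 in T vs. S (-0.001) was 0.005 with DESeq2, 0.001 with the likelihood ratio test and without Rn45s, 0.004 with DESeq2 size factors, 0.002 with no filter, and 0.006 with only 2 groups or the length trend removed. Hopx in A + T vs. S was -0.01 with the length trend removed and -0.033 with the atrial covariate, and Mef2c in A + T vs. T was -0.001 on the deposited values. With 1 animal left out, ranges that crossed 0 were, in T vs. S, -0.129 to 0.149 for Tbx20 and -0.21 to 0.121 for Hand2. In A + T vs. T they were -0.181 to 0.158 for Hand2 and -0.079 to 0.15 for Mef2c. In A + T vs. S they were -0.352 to 0.034 for Tbx20, -0.14 to 0.061 for Hand2, -0.234 to 0.004 for Mef2c, -0.212 to 0.047 for Mef2d and -0.142 to 0.167 for Hopx. Every member had at least 437 counts in every library.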
